A study of Mus musculus with 8 samples.

Results

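The genes of the Wnt signalling system were followed in RNA-seq libraries of mouse malignant peripheral nerve sheath tumour (MPNST) cells. Members were taken by gene symbol: the numbered Wnt ligands, *Fzd1* to *Fzd10*, *Lrp5* and *Lrp6*, the secreted antagonists of the *Sfrp*, *Dkk*, *Wif1* and *Notum* families, the R-spondins and their *Lgr* receptors, *Znrf3* and *Rnf43*, the nuclear factors *Lef1*, *Tcf7*, *Tcf7l1* and *Tcf7l2*, and the feedback targets *Axin2*, *Nkd1* and *Nkd2*. The rule found 57 members among 50600 listed genes. Of these, 35 reached a count of 10 in 2 or more of the 8 libraries and were tested, among 14497 genes that met this minimum.

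NF1-MET is a cell line from a *Met*-amplified, *Trp53* wild-type MPNST of a mouse that is Nf1 fl/ko and carries the transgenes lox-stop-loxMET tg/+ and Plp-creERT tg/+. NF1-MET;sgP53 was derived from it with Cas9 and a guide against *Trp53*, delivered by lentivirus. The study also made an empty vector control line. The NF1-MET libraries carry SEV in their descriptions, which the labels do not spell out, while their cell line is given as NF1-MET. Whether they came from the control line is not stated, so effects of the vector and its selection cannot be told apart from those of the guide between the lines. All groups share the NF1-MET background, in which the study found *Cdkn2a* deleted. Each genotype is represented by 1 line. Cells were treated for 24 h with DMSO (vehicle) or with 100 nM capmatinib, an inhibitor of the receptor tyrosine kinase MET, which gave 4 groups of 2 libraries: NF1-MET vehicle, NF1-MET capmatinib, NF1-MET;sgP53 vehicle and NF1-MET;sgP53 capmatinib. The replicates came from duplicate wells, so the p-values measure the spread between wells of the same line.

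Wnt ligands are lipid-modified secreted proteins that bind Frizzled receptors together with the co-receptors Lrp5 and Lrp6. In the canonical branch, binding stops the destruction of beta-catenin, which then joins the nuclear factors of the Tcf and Lef family and switches on target genes, several of which feed back on the pathway. Secreted antagonists act at the cell surface, by holding the ligand (Sfrp proteins, Wif1), by blocking the co-receptor (most Dkk proteins) or by removing the lipid of the ligand (Notum). R-spondins act through Lgr receptors to keep the ubiquitin ligases Znrf3 and Rnf43 from clearing Frizzled from the membrane. In the Schwann cell lineage, Wnt signalling takes part in neural crest specification and in myelination.

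The libraries held 30.1 M to 42.8 M counts. A count of 0 in a library allows up to 0.0701 to 0.0996 CPM (counts scaled to library size), depending on depth, for counting error only. These limits use raw library totals. The CPM levels given below also use TMM factors, so the limits are not on the same scale. *Trp53* was at 182 and 193 CPM in NF1-MET vehicle and at 97.5 and 100.1 CPM in NF1-MET;sgP53 vehicle, so the transcript was lower but present in the edited line. Under capmatinib it was at 126 and 128 CPM in NF1-MET and at 68.0 and 68.8 CPM in NF1-MET;sgP53. Of 11 Schwann lineage markers, 6 met the count minimum, and *Sox10*, *Foxd3*, *Cdh19* and *Ngfr* were among those that did not. The summed Schwann lineage markers ran from 44.6 to 53.1 CPM in the vehicle libraries and from 108.8 to 126 CPM with capmatinib, where *Pmp22* was at 101.7 to 118.7 CPM. *Gap43* went the other way, from 18.1 to 21.7 CPM in vehicle to 2.79 to 3.83 CPM with capmatinib. All 7 mesenchyme markers were expressed, with sums of 9258 to 9622 CPM in vehicle and 21341 to 21927 CPM with capmatinib. Most of that gap was *Col1a1*, at 2411 to 3290 CPM in vehicle and 15151 to 15523 CPM with capmatinib. *Pdgfrb* (178 to 238 and 444 to 474 CPM), *Prrx1* (442 to 510 and 594 to 621 CPM) and *Thy1* (0.689 to 1.86 and 2.53 to 4.08 CPM) also lay higher with capmatinib. *Vim* (5140 to 5695 and 4709 to 4974 CPM) and *Pdgfra* (417 to 449 and 324 to 362 CPM) lay lower, and *Twist1* overlapped between the treatments. The muscle list rested on *Acta2* alone, at a mean of 412 CPM in NF1-MET vehicle and 7522 CPM in NF1-MET capmatinib. In NF1-MET;sgP53 its means were 890 CPM in vehicle and 8140 CPM with capmatinib. The sums of the epithelial and endothelial lists stayed under 1 CPM in every library, and those of the blood list under 2 CPM. The nerve cell list, of which *Tubb3* and *Snap25* met the minimum and *Rbfox3* was near 0, summed to 20.8 to 25.7 CPM in vehicle and to 39.7 to 42.7 CPM with capmatinib, nearly all of it *Tubb3*. The part of these shifts in the Wnt results was not tested. Fewer cells of a type and less RNA per cell cannot be told apart in such libraries.

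Capmatinib moved most of the tested Wnt genes, with calls in the same direction in both lines for 26 of them. In NF1-MET cells, 22 tested members rose and 7 fell, which is 82.9% of the 35 tested, in a comparison where 70.2% of all tested genes passed (35.5% up, 34.7% down). In NF1-MET;sgP53 cells 19 rose and 8 fell, or 77.1%, against 67.6% of all tested genes (34.2% up, 33.4% down). At a fold change of at least 2, 15 of the 35 (42.9%) passed in each line, against 16.8% and 15.4% of all tested genes. The median log2 fold change was 0.57 and 0.44 over the tested members and 0.0020 and 0.0049 over all tested genes. The libraries of the 2 treatments did not overlap for 31 of the 35 (88.6%) in each line, beside 83.5% and 82.5% of all tested genes. *Wnt4* and *Wnt7b* are in these counts although they met the minimum only through the treatment in which they were high. A call is an adjusted p under 0.05 in the quasi-likelihood F-test of edgeR, adjusted over all tested genes by the Benjamini-Hochberg method. Log2 fold changes below carry a standard error (SE), taken as the absolute log2 fold change over the square root of the F statistic of that test.

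The comparisons in the 2 lines share no library. They had 26 calls in the same direction, 19 higher and 7 lower, which is 89.7% of those in NF1-MET and 96.3% of those in NF1-MET;sgP53, beside 85.8% and 89.0% for all tested genes. These 26 include *Wnt4* and *Wnt7b*, and 24 such calls are left among the 33 genes without them. *Wnt10a* was the exception with opposite calls, and *Axin2* and *Lrp5* were called in NF1-MET alone. Across the 35 genes, which in each line share the same 4 libraries, the log2 fold changes of the lines had a Pearson correlation of 0.90 and a Spearman correlation of 0.92, and of 0.93 and 0.91 over the 33 genes without *Wnt4* and *Wnt7b*. Scaling to library totals without TMM factors put the median of all genes at -0.18 for NF1-MET and -0.12 for NF1-MET;sgP53, so changes are given relative to the median gene. With that scaling 16 members were higher and 8 lower in each line, and all tested genes split into 3508 up and 6381 down for NF1-MET, and 3260 up and 4933 down for NF1-MET;sgP53.

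**Figure D1:**
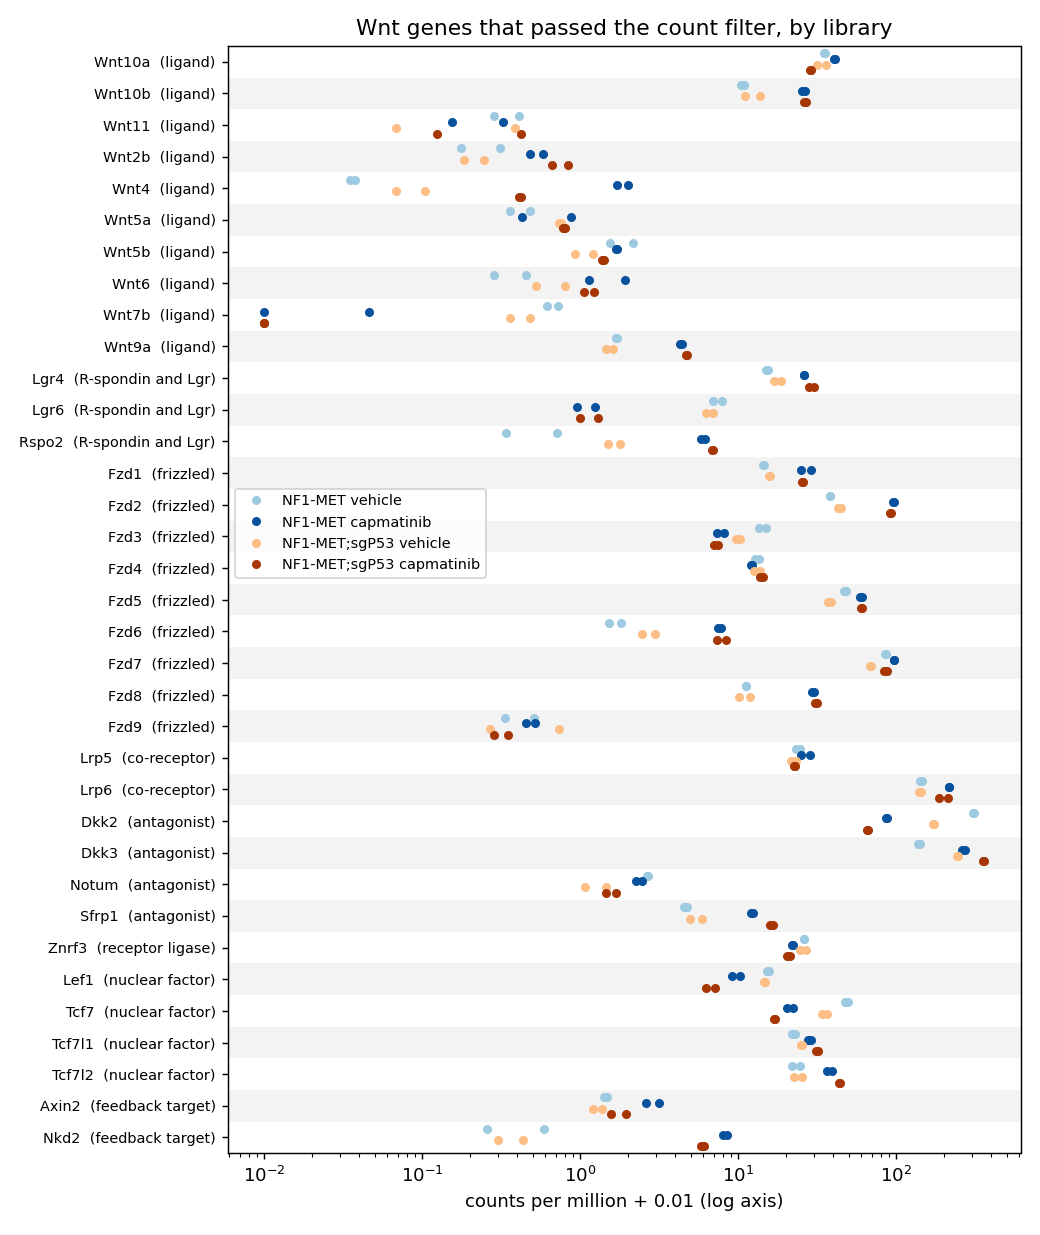
CPM plus 0.01 of the 35 tested Wnt genes (rows, with their role) on a log axis, with 1 point per library coloured by group. Levels ran from 0 for *Wnt7b* with capmatinib to 362 CPM for *Dkk3*, and the capmatinib points of *Nkd2*, *Rspo2* and *Wnt4* lay far to the right of the vehicle points.

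Among the ligands, 10 of 19 met the count minimum. *Wnt10a* and *Wnt10b*, both known as activators of the canonical branch, made up most of the ligand message. Per kilobase of exon, *Wnt10a* had a mean level of 14.2 CPM in NF1-MET vehicle and *Wnt10b* of 3.13, and the next were *Wnt5b* at 0.693 and *Wnt9a* at 0.509. *Wnt10a* alone gave 73.8% and 75.1% of the summed ligand level per kilobase in the NF1-MET vehicle libraries and 60.7% and 59.0% with capmatinib. In NF1-MET;sgP53 it gave 75.1% and 70.1% in vehicle and 51.8% and 52.3% with capmatinib. The share of *Wnt10b* was 16.4% and 16.3% in NF1-MET vehicle and 27.4% and 28.2% with capmatinib. In NF1-MET;sgP53 that share was 16.7% and 22.2% in vehicle and 35.7% and 34.1% with capmatinib. The summed ligand level per kilobase was 19.1 ± 0.52 CPM (SD, n = 2) in NF1-MET vehicle, 27.4 ± 0.31 in NF1-MET capmatinib, 18.8 ± 0.79 in NF1-MET;sgP53 vehicle and 22.3 ± 0.15 in NF1-MET;sgP53 capmatinib.

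**Figure D2:**
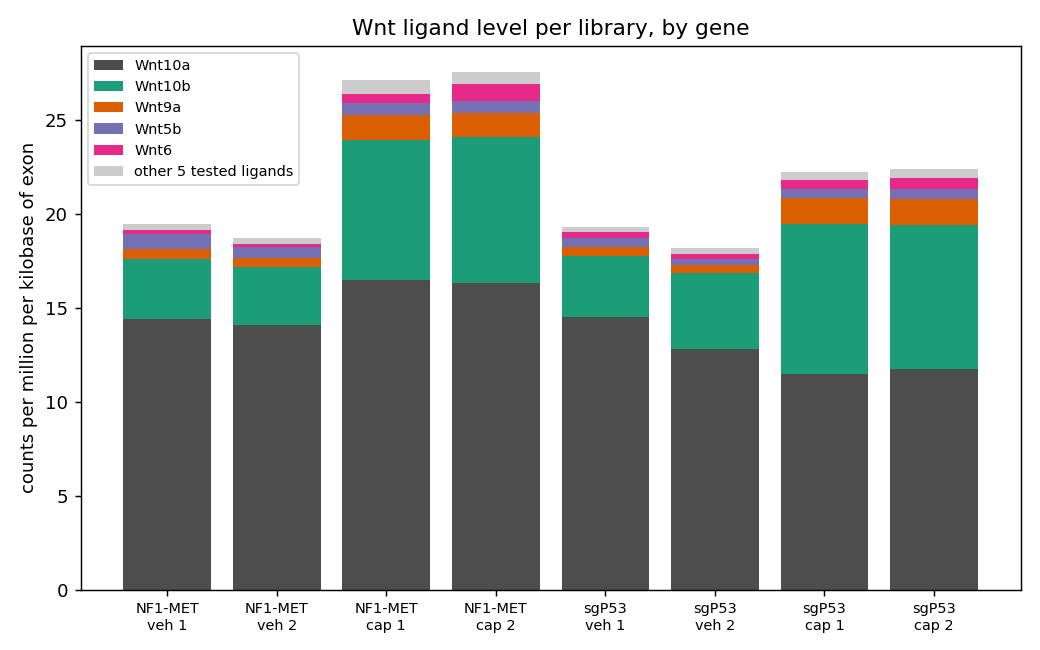
Stacked bars of the ligand level in CPM per kilobase of exon for each of the 8 libraries, with the 5 highest ligands shown singly and the other 5 tested ligands together in light grey (veh, vehicle; cap, capmatinib; sgP53, NF1-MET;sgP53). Bars were taller with capmatinib in both lines. In the second libraries, *Wnt10a* was 75.1% of the summed ligand level in NF1-MET vehicle and 59.0% in NF1-MET capmatinib. It was 70.1% in NF1-MET;sgP53 vehicle and 52.3% in NF1-MET;sgP53 capmatinib.

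*Wnt10b* was at 10.9 and 10.4 CPM in NF1-MET vehicle and at 25.3 and 26.5 CPM with capmatinib, while NF1-MET;sgP53 vehicle was at 10.998 and 13.8 CPM and NF1-MET;sgP53 capmatinib at 27.0 and 26.0 CPM. It rose by 1.27 ± 0.07 (edgeR adjusted p = 3.2e-17) and by 1.09 ± 0.08 (adjusted p = 5.0e-11) on the log2 scale. No capmatinib library overlapped a vehicle library. *Wnt9a* rose in the same way, from 1.71 and 1.68 CPM to 4.37 and 4.27 CPM in NF1-MET (1.33 ± 0.17, edgeR adjusted p = 1.7e-08) and from 1.60 and 1.45 CPM to 4.62 and 4.74 CPM in NF1-MET;sgP53 (1.62 ± 0.16, adjusted p = 1.1e-08). *Wnt10a* moved little: it was at 35.5 and 34.8 CPM in NF1-MET vehicle, 40.7 and 40.2 CPM in NF1-MET capmatinib, 35.8 and 31.5 CPM in NF1-MET;sgP53 vehicle, with 28.4 and 28.9 CPM in NF1-MET;sgP53 capmatinib. It was called higher in NF1-MET (0.18 ± 0.05) and lower in NF1-MET;sgP53 (-0.23 ± 0.06). The first of these calls was lost with library totals, where the value was -0.00098, and the second without NF1-MET;sgP53 vehicle replicate 1 (-0.14, edgeR adjusted p = 0.051).

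*Wnt4*, a ligand best known from kidney and reproductive tract development, went from near absence to a clear signal. It had 1 and 1 counts in NF1-MET vehicle, 55 and 65 counts in NF1-MET capmatinib, 2 and 4 counts in NF1-MET;sgP53 vehicle, and 14 and 15 counts in NF1-MET;sgP53 capmatinib. In NF1-MET the ratio of capmatinib to vehicle was 69.2, with a 95% counting interval of 18.7 to 578. This interval pools the 2 wells of a group and leaves out the spread between them. *Wnt4* was tested in each line only because its capmatinib libraries reached the minimum, so no test is given. Both capmatinib libraries lay above both vehicle libraries in each line, and the NF1-MET capmatinib libraries lay above all others.

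*Wnt6* was at 0.441 and 0.276 CPM in NF1-MET vehicle and at 1.12 and 1.901 CPM with capmatinib, while NF1-MET;sgP53 vehicle was at 0.786 and 0.515 CPM and NF1-MET;sgP53 capmatinib at 1.05 and 1.21 CPM. It rose by 2.10 ± 0.35 in NF1-MET (edgeR adjusted p = 2.5e-06) and by 0.82 ± 0.32 in NF1-MET;sgP53 (adjusted p = 0.028). The second call was lost without NF1-MET;sgP53 vehicle replicate 2 (0.53, edgeR adjusted p = 0.249), without NF1-MET;sgP53 capmatinib replicate 2 (0.70, adjusted p = 0.137), with DESeq2's Wald test (0.80, adjusted p = 0.140), with library totals (0.70, adjusted p = 0.0603) and with no filter on low counts (0.82, adjusted p = 0.0503). *Wnt2b* was under 1 CPM in all libraries and was called higher in both lines, by 1.13 ± 0.47 and 1.82 ± 0.44. In NF1-MET that call of *Wnt2b* was lost without vehicle replicate 1 (0.79, edgeR adjusted p = 0.216) and without capmatinib replicate 2 (0.97, adjusted p = 0.173), with DESeq2's Wald test (1.14, adjusted p = 0.174) and with library totals (0.95, adjusted p = 0.0735).

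*Wnt7b* was nearly absent with capmatinib in both lines. It had 26 and 24 counts in NF1-MET vehicle, 1 and 0 in NF1-MET capmatinib, 12 and 20 in NF1-MET;sgP53 vehicle, and 0 and 0 in NF1-MET;sgP53 capmatinib. The ratio of vehicle to capmatinib was 43.4 in NF1-MET, with a 95% counting interval of 7.44 to 1747, and the level was at least 9.90-fold lower with capmatinib in NF1-MET;sgP53, taking 3 counts over the group as the floor. Both values pool the 2 wells of a group and leave out the spread between them. *Wnt7b* met the minimum only through its vehicle libraries, so no test is given, and in NF1-MET;sgP53 it was too low to be tested without either vehicle library. *Wnt5b*, *Wnt5a* and *Wnt11*, ligands often placed in the branches that do not use beta-catenin, were not called with capmatinib in either line. *Wnt5b* lay between 0.913 and 2.15 CPM over the 8 libraries, *Wnt5a* between 0.351 and 0.867 CPM, and *Wnt11* between 0.0582 and 0.413 CPM. The other 9 ligands failed the minimum, and *Wnt3*, *Wnt3a*, *Wnt7a*, *Wnt8a*, *Wnt8b* and *Wnt9b* had 0 counts in every library. *Wnt1* reached 5 counts in 1 library and *Wnt16* and *Wnt2* lay below that.

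Several of these ligand genes lie next to each other in the mouse genome (GRCm38). *Wnt6* (chr1:74771892-74785322) and *Wnt10a* (chr1:74791516-74804179) are on the plus strand with 6.2 kb between them, and *Wnt10b* (chr15:98770712-98778150) and *Wnt1* (chr15:98789857-98793837) point away from each other across 11.7 kb. *Wnt3a* and *Wnt9a* on chromosome 11 are 16.2 kb apart, also pointing away from each other. *Wnt9b* and *Wnt3*, also on chromosome 11 and 24.3 kb apart, both had 0 counts in every library. In the other pairs neighbours differed in level: *Wnt10a* was the highest ligand beside *Wnt6* at no more than 1.901 CPM, *Wnt10b* was expressed beside *Wnt1* at 5 counts or fewer, and *Wnt9a* was expressed beside *Wnt3a* at 0 counts.

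Of the R-spondins, which amplify Wnt signals, *Rspo2* was the expressed one. It was at 0.331 and 0.702 CPM in NF1-MET vehicle, 6.11 and 5.78 CPM in NF1-MET capmatinib, 1.77 and 1.498 CPM in NF1-MET;sgP53 vehicle, with 6.81 and 6.95 CPM in NF1-MET;sgP53 capmatinib. All capmatinib libraries lay above all vehicle libraries, and among the vehicle libraries those of NF1-MET;sgP53 lay above those of NF1-MET. It rose 11.1-fold in NF1-MET (log2 3.47 ± 0.22, edgeR adjusted p = 1.5e-15) and 4.23-fold in NF1-MET;sgP53 (2.08 ± 0.14, adjusted p = 1.6e-11). The first value rested on the vehicle libraries: it was 4.13 without NF1-MET vehicle replicate 2 and 3.06 without NF1-MET vehicle replicate 1. *Rspo3* and *Rspo4* had 0 counts in every library, and *Rspo1* had 1 count in 1 library.

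The R-spondin receptors split. *Lgr6* was at 7.85 and 6.90 CPM in NF1-MET vehicle, 0.940 and 1.22 CPM in NF1-MET capmatinib, 6.95 and 6.27 CPM in NF1-MET;sgP53 vehicle, with 1.28 and 0.992 CPM in NF1-MET;sgP53 capmatinib. It fell 6.73-fold in NF1-MET (log2 -2.75 ± 0.16, edgeR adjusted p = 6.1e-16) and 5.81-fold in NF1-MET;sgP53 (-2.54 ± 0.16, adjusted p = 4.9e-12). *Lgr4*, the higher of the 2 receptors, rose from 15.1 and 15.4 CPM to 25.9 and 26.0 CPM in NF1-MET (0.75 ± 0.06) and from 16.8 and 18.7 CPM to 27.9 and 30.2 CPM in NF1-MET;sgP53 (0.71 ± 0.07). The vehicle and capmatinib libraries of these receptors did not overlap. *Lgr5*, a marker of several adult stem cells, failed the minimum with at most 4 counts in a library.

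Of the 10 Frizzled genes, 9 were tested, and 6 rose and 1 fell with capmatinib in each line. That is 77.8%, beside 70.2% and 67.6% of all tested genes. *Fzd7* and *Fzd2* carried most of the Frizzled message. In NF1-MET vehicle *Fzd7* gave 41.5% and 42.2% of the summed Frizzled level per kilobase and *Fzd2* gave 23.3% and 23.0%. In NF1-MET capmatinib their order was turned, with 29.6% and 30.1% for *Fzd7* and 36.6% and 36.3% for *Fzd2*. The summed Frizzled level per kilobase rose from 45.0 ± 0.17 to 71.8 ± 0.53 CPM (SD, n = 2) in NF1-MET and from 41.6 ± 0.19 to 68.3 ± 0.89 CPM in NF1-MET;sgP53.

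*Fzd2* was at 38.3 and 37.9 CPM in NF1-MET vehicle, 96.8 and 95.001 CPM in NF1-MET capmatinib, 42.6 and 44.7 CPM in NF1-MET;sgP53 vehicle, with 91.9 and 91.8 CPM in NF1-MET;sgP53 capmatinib. It rose 2.49-fold (log2 1.31 ± 0.04, edgeR adjusted p = 8.9e-25) and 2.10-fold (1.07 ± 0.04, adjusted p = 3.6e-17). *Fzd6*, a receptor with a known part in planar cell polarity, went from 1.52 and 1.81 CPM to 7.48 and 7.73 CPM in NF1-MET (2.17 ± 0.14, edgeR adjusted p = 6.4e-15) and from 2.44 and 2.95 CPM to 8.31 and 7.33 CPM in NF1-MET;sgP53 (1.52 ± 0.13, adjusted p = 5.0e-10). *Fzd8* rose from 11.2 and 11.2 CPM to 29.3 and 30.1 CPM in NF1-MET (1.39 ± 0.06, edgeR adjusted p = 6.6e-19) and from 11.8 and 10.1 CPM to 31.3 and 30.7 CPM in NF1-MET;sgP53 (1.51 ± 0.07, adjusted p = 2.2e-14). For all 3 receptors the capmatinib libraries lay above the vehicle libraries with no overlap.

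*Fzd1* rose by 0.87 ± 0.07 and 0.69 ± 0.06, and *Fzd5* by 0.32 ± 0.04 and 0.68 ± 0.04. A gene on the opposite strand covers 17.8% of the exon length of *Fzd5*, and the strand setting of the counting is not given in the sources used here. *Fzd7* was called higher with small changes of 0.17 ± 0.03 and 0.32 ± 0.03. With library totals the value of *Fzd7* in NF1-MET was -0.016 and its call in NF1-MET;sgP53 was lost (0.19, edgeR adjusted p = 0.0970), and *Fzd5* was no longer called in NF1-MET (0.13, adjusted p = 0.0695). *Fzd3*, another receptor of the planar polarity branch, was the one that fell: it went from 15.01 and 13.5 CPM to 7.30 and 8.10 CPM in NF1-MET (-0.89 ± 0.09) and from 10.3 and 9.67 CPM to 7.46 and 6.97 CPM in NF1-MET;sgP53 (-0.46 ± 0.09). *Fzd4* lay between 12.0 and 14.3 CPM over the 8 libraries and *Fzd9* between 0.257 and 0.727 CPM, and neither was called. *Fzd10* had 0 counts in every library.

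The co-receptor *Lrp6* was the more abundant, with 80.3% to 86.8% of the summed co-receptor level per kilobase over the 8 libraries. It rose from 146 and 141 CPM to 216 and 216 CPM in NF1-MET (0.58 ± 0.03) and from 144 and 139 CPM to 213 and 187 CPM in NF1-MET;sgP53 (0.50 ± 0.04). *Lrp5* was at 23.3 and 24.6 CPM in NF1-MET vehicle and 25.0 and 28.5 CPM with capmatinib, and at 23.3 and 21.7 CPM in NF1-MET;sgP53 vehicle and 23.0 and 22.4 CPM with capmatinib. Its call in NF1-MET (0.15 ± 0.06, edgeR adjusted p = 0.027) was lost without vehicle replicate 1 (0.12, adjusted p = 0.124), without capmatinib replicate 2 (0.049, adjusted p = 0.596), with DESeq2's Wald test (0.15, adjusted p = 0.175) and with library totals (-0.038).

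**Figure D3:**
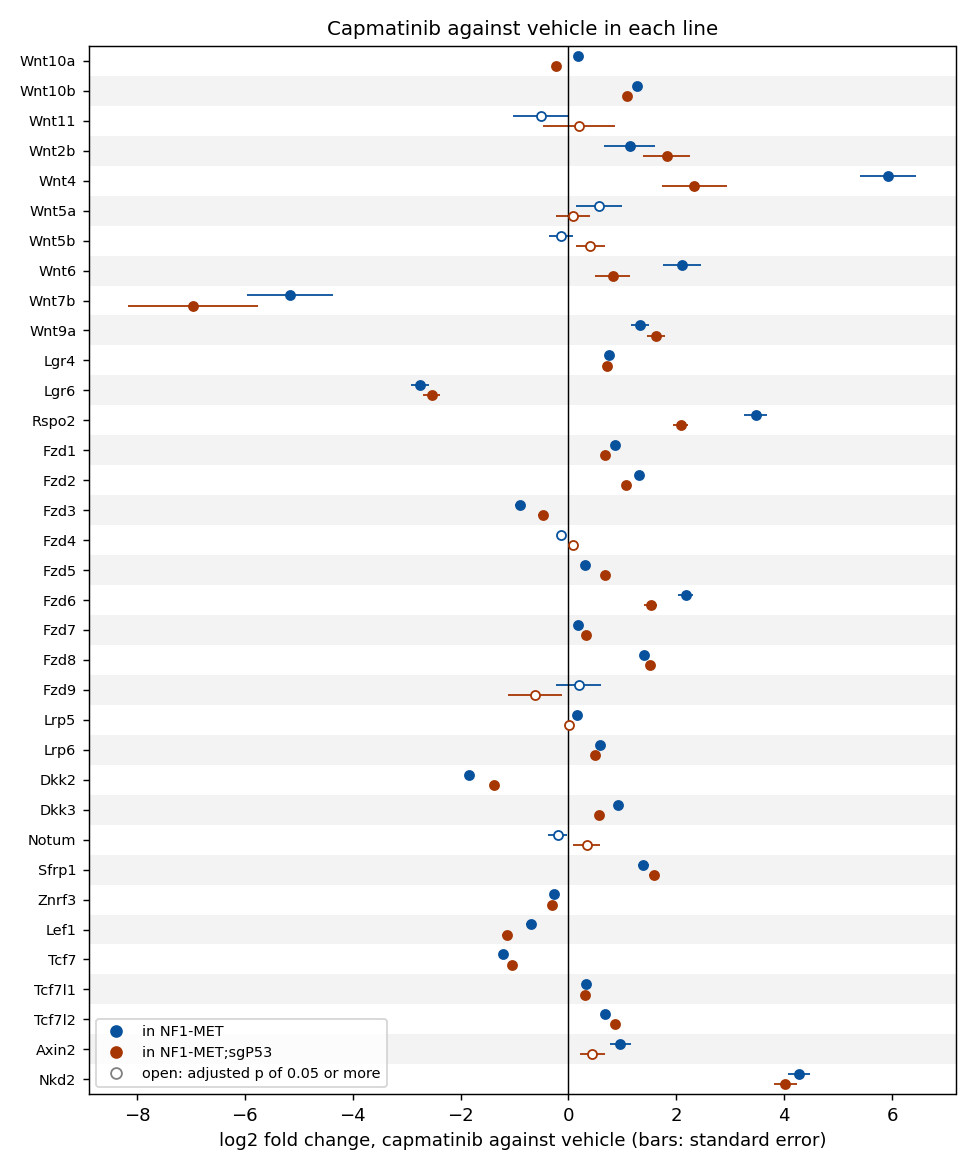
Log2 fold change of capmatinib against vehicle for the 35 tested Wnt genes, in NF1-MET (blue) and NF1-MET;sgP53 (dark orange), with bars for the standard error and open points where the adjusted p was 0.05 or more. Calls were on the same side of 0 in both lines for 26 members, and *Wnt10a* was called on opposite sides. The fitted positions of *Wnt4* and *Wnt7b* depend on the small count added in the fit.

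Of the 10 antagonists, 4 were tested, and the abundant ones, *Dkk2* and *Dkk3*, moved in opposite directions. *Dkk2*, which binds the co-receptors, was at 310.5 and 306 CPM in NF1-MET vehicle, 87.6 and 85.9 CPM in NF1-MET capmatinib, 169.5 and 174 CPM in NF1-MET;sgP53 vehicle, with 65.5 and 66.2 CPM in NF1-MET;sgP53 capmatinib. *Dkk3*, a divergent relative of the other Dkk proteins, was at 141 and 138 CPM, 272 and 259.9 CPM, 245 and 241 CPM, and 354 and 362 CPM in the same order. The 4 groups did not overlap for *Dkk2*, and the capmatinib libraries of each line lay above its vehicle libraries for *Dkk3*.

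*Dkk2* fell in NF1-MET (-1.85 ± 0.03, edgeR adjusted p = 1.8e-32) and in NF1-MET;sgP53 (-1.38 ± 0.04, adjusted p = 4.2e-19), and *Dkk3* rose by 0.91 ± 0.03 and 0.56 ± 0.03 (log2). *Dkk2* gave 65.4% and 65.7% of the summed antagonist level per kilobase in NF1-MET vehicle and 21.8% and 22.2% with capmatinib, while *Dkk3* went from 32.9% and 32.6% to 74.6% and 74.2%. In NF1-MET;sgP53, *Dkk3* was already the higher in vehicle, with 60.4% and 59.6% against 38.0% and 39.0% for *Dkk2*, and with capmatinib it held 82.7% and 82.9%. The sum itself was 126.8 ± 1.7 CPM per kilobase (SD, n = 2) in NF1-MET vehicle and 106 ± 2.9 with capmatinib, and 120.4 ± 0.22 and 129 ± 1.8 in NF1-MET;sgP53.

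*Sfrp1*, a decoy that binds the ligand, went from 4.49 and 4.71 CPM to 12.3 and 12.1 CPM in NF1-MET (1.39 ± 0.10, edgeR adjusted p = 4.8e-14) and from 5.85 and 4.96 CPM to 16.5 and 15.9 CPM in NF1-MET;sgP53 (1.59 ± 0.09, adjusted p = 7.6e-13). *Notum*, a target of beta-catenin as well as an antagonist, was at 2.67 and 2.63 CPM in NF1-MET vehicle, 2.46 and 2.24 CPM with capmatinib, then 1.45 and 1.05 CPM in NF1-MET;sgP53 vehicle and 1.45 and 1.68 CPM with capmatinib. It was not called with capmatinib in NF1-MET (-0.20 ± 0.17, edgeR adjusted p = 0.31) or in NF1-MET;sgP53 (0.34 ± 0.25, adjusted p = 0.25). Genes on the opposite strand cover 38.1% of the exon length of *Notum*, so reads of the 2 strands cannot be told apart for it without the strand setting of the counting. The other 6 antagonists, *Dkk1*, *Dkk4*, *Sfrp2*, *Sfrp4*, *Sfrp5* and *Wif1*, failed the minimum, with *Sfrp4* highest at 7 counts in a library.

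*Znrf3* was the expressed receptor ligase, and *Rnf43* had 0 counts in every library. *Znrf3*, which is also a target of beta-catenin, was at 26.1 and 26.2 CPM in NF1-MET vehicle, 22.0 and 22.1 CPM with capmatinib, then 26.7 and 24.6 CPM in NF1-MET;sgP53 vehicle and 21.3 and 20.4 CPM with capmatinib. It fell in both lines (-0.26 ± 0.06, edgeR adjusted p = 1.4e-04, and -0.30 ± 0.06, adjusted p = 1.9e-04), and the libraries of the 2 treatments did not overlap in either line.

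Among the nuclear factors, *Tcf7* and *Lef1*, which are also known as targets of beta-catenin, fell with capmatinib, while *Tcf7l1* and *Tcf7l2* rose. *Tcf7* was at 49.7 and 47.5 CPM in NF1-MET vehicle, 22.2 and 20.4 CPM in NF1-MET capmatinib, 36.6 and 33.9 CPM in NF1-MET;sgP53 vehicle, with 16.9 and 17.0 CPM in NF1-MET;sgP53 capmatinib. It fell in both lines (-1.21 ± 0.05, edgeR adjusted p = 1.1e-19, and -1.05 ± 0.06, adjusted p = 4.0e-13). The 4 groups of *Tcf7* did not overlap, with NF1-MET vehicle highest and NF1-MET;sgP53 capmatinib lowest. *Lef1* was at 15.2 and 15.6 CPM in NF1-MET vehicle, 10.2 and 9.16 CPM in NF1-MET capmatinib, 14.8 and 14.6 CPM in NF1-MET;sgP53 vehicle, with 6.21 and 7.11 CPM in NF1-MET;sgP53 capmatinib. It also fell in both (-0.70 ± 0.08, edgeR adjusted p = 3.4e-09, and -1.14 ± 0.09, adjusted p = 1.2e-10). A gene on the opposite strand covers 13.7% of the exon length of *Lef1*.

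*Tcf7l2* rose from 21.8 and 24.6 CPM to 36.2 and 39.3 CPM in NF1-MET (0.69 ± 0.06) and from 22.6 and 25.4 CPM to 43.2 and 44.2 CPM in NF1-MET;sgP53 (0.86 ± 0.05). *Tcf7l1*, which acts mainly as a repressor, rose from 23.0 and 21.7 CPM to 27.5 and 28.9 CPM (0.32 ± 0.06) and from 25.5 and 25.0 CPM to 30.9 and 31.7 CPM (0.31 ± 0.05). Both calls of *Tcf7l1* were lost with library totals (0.13, edgeR adjusted p = 0.106, in NF1-MET and 0.19, adjusted p = 0.143, in NF1-MET;sgP53). Of the summed level of the 4 factors per kilobase, *Tcf7* held 65.3% and 64.1% in NF1-MET vehicle and 40.7% and 37.7% with capmatinib, and 56.5% and 54.2% in NF1-MET;sgP53 vehicle and 32.3% and 31.7% with capmatinib.

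Of the feedback targets, *Nkd2* and *Axin2* were tested. *Nkd2*, which binds Dishevelled and dampens Wnt signals, was at 0.248 and 0.577 CPM in NF1-MET vehicle, 8.02 and 8.51 CPM in NF1-MET capmatinib, 0.291 and 0.421 CPM in NF1-MET;sgP53 vehicle, with 5.82 and 6.04 CPM in NF1-MET;sgP53 capmatinib. It rose 19.4-fold (log2 4.28 ± 0.20, edgeR adjusted p = 1.3e-18) and 16.2-fold (4.02 ± 0.21, adjusted p = 1.9e-13). The value of *Nkd2* in NF1-MET was 5.03 without NF1-MET vehicle replicate 2 and 3.82 without NF1-MET vehicle replicate 1. Its relative *Nkd1* had at most 2 counts in a library. *Axin2*, a scaffold of the beta-catenin destruction complex and the most widely used readout of beta-catenin activity, was at 1.46 and 1.40 CPM in NF1-MET vehicle, 3.14 and 2.58 CPM in NF1-MET capmatinib, 1.37 and 1.19 CPM in NF1-MET;sgP53 vehicle, with 1.93 and 1.54 CPM in NF1-MET;sgP53 capmatinib. It rose 1.95-fold in NF1-MET (0.96 ± 0.20, edgeR adjusted p = 6.2e-05). In NF1-MET;sgP53 its value of 0.44 ± 0.24 was not called (adjusted p = 0.10), although the capmatinib libraries lay above the vehicle libraries there too. At no more than 3.14 CPM in any library, *Axin2* was a low gene throughout.

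**Figure D4:**
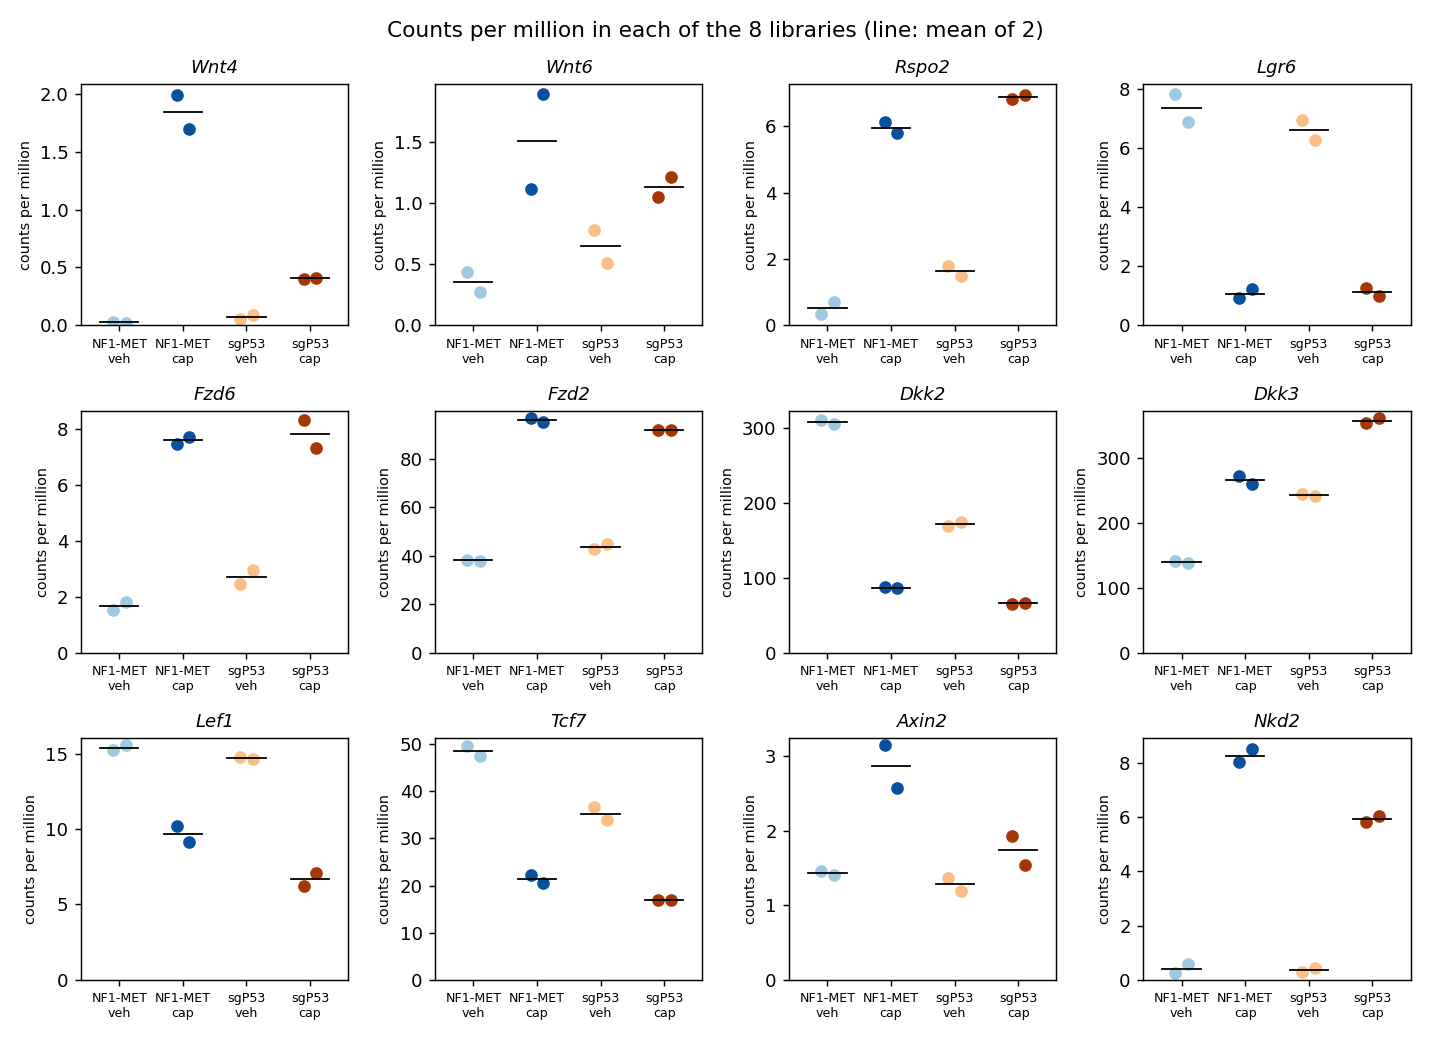
CPM of 12 Wnt genes in each of the 8 libraries, with 2 points per group, a line at their mean and axes that start at 0; sgP53 stands for NF1-MET;sgP53, veh for vehicle and cap for capmatinib. *Lgr6*, *Dkk2*, *Lef1* and *Tcf7* were lower with capmatinib in both lines and the other 8 genes were higher, with the *Axin2* difference in NF1-MET;sgP53 not past the threshold.

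Start sites were searched for the core of the Tcf and Lef recognition sequence, taken as CTTTGNN on either strand with A or T in each of the last places, since the nuclear factors and their targets moved in both directions. RefSeq promoters, from 250 bases before a start site to 50 bases after it (build GRCm38.p6), were at hand for 38 members with 47 start sites. Of these, 7 (14.9%) held a word, against 16.9% of all 32851 promoters in the table. The 250 bases before 4 starts are shown with any word in capitals: *Axin2* (chr11:108920099-108920348, plus strand) and *Nkd2* (chr13:73847632-73847881, minus strand), the feedback targets that rose, *Axin2* by its call in NF1-MET alone, and a start inside *Lef1* (chr3:131156044-131156293, plus strand) and one inside *Tcf7l2* (chr19:55895071-55895320, plus strand), nuclear factors that moved in opposite directions.
Axin2: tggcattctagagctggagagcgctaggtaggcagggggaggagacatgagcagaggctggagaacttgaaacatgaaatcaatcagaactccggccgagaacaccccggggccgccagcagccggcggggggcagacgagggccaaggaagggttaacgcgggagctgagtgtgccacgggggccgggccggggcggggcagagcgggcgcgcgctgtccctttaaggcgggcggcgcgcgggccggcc
Nkd2: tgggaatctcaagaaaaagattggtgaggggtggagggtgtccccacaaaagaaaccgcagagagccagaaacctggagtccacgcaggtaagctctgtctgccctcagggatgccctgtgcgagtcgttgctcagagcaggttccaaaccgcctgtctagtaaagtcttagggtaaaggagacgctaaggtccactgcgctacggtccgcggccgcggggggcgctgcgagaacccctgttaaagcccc
Lef1: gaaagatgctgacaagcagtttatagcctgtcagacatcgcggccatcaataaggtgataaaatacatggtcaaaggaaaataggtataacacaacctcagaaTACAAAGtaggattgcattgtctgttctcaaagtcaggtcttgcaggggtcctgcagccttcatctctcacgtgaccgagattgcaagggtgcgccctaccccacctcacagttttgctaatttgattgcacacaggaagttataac
Tcf7l2: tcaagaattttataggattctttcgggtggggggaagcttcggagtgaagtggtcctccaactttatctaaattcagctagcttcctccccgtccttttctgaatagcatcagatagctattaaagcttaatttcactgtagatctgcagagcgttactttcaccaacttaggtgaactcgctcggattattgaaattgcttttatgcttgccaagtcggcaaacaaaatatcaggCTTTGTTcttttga
None of the 250 bases before these starts is exonic in the annotation, and the *Lef1* and *Tcf7l2* windows are intronic. The other starts of *Lef1* and *Tcf7l2* in the table, those nearest the annotated gene starts included, held no such word, and the windows shown were picked because they did. The *Axin2* and *Nkd2* windows, directly before the first base of each gene, held none of these words. The *Lef1* window held CTTTGTA on the reverse strand, beginning 147 bases before the start, and the *Tcf7l2* window held CTTTGTT, beginning 14 bases before it. A word is a match of letters and no measure of binding.

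Between the lines without drug, *Dkk2*, *Notum*, *Wnt5b*, *Fzd3*, *Tcf7*, *Fzd5* and *Fzd7* were lower in NF1-MET;sgP53 vehicle than in NF1-MET vehicle, and *Rspo2*, *Dkk3*, *Fzd6*, *Lgr4* and *Fzd2* were higher. These 12 calls are 34.3% of the 35 tested members, where 23.2% of all tested genes were called (10.9% higher, 12.3% lower). The median log2 difference was -0.054 over the tested members and 0.0024 over all tested genes. With library totals the members split the same, into 5 higher and 7 lower, while all tested genes split into 1280 higher and 743 lower.

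*Rspo2* was 3.05-fold higher in the edited line (log2 1.61 ± 0.32, edgeR adjusted p = 6.9e-04) and *Notum* 2.17-fold lower (-1.12 ± 0.21, adjusted p = 4.0e-04). *Dkk2* was lower (-0.86 ± 0.03, edgeR adjusted p = 4.8e-15), *Dkk3* higher (0.78 ± 0.03, adjusted p = 3.5e-14), and *Tcf7* lower at -0.48 ± 0.05 (adjusted p = 1.2e-07). Without NF1-MET vehicle replicate 2 the value of *Rspo2* was 2.27, and without NF1-MET vehicle replicate 1 it was 1.19 (edgeR adjusted p = 0.0142). For each of these 5 genes the vehicle libraries of the lines did not overlap, which held for 24 of the 35 tested members (68.6%) and 60.5% of all tested genes. The call of *Fzd6* (0.68 ± 0.19) was lost without NF1-MET vehicle replicate 1 (0.57, edgeR adjusted p = 0.111) and without NF1-MET;sgP53 vehicle replicate 2 (0.53, adjusted p = 0.122), and so was that of *Wnt5b* (-0.83 ± 0.25, then -0.57 and -0.64, adjusted p = 0.254 and 0.133). *Fzd2* (0.18 ± 0.04) was not called without NF1-MET;sgP53 vehicle replicate 2 (0.14, adjusted p = 0.0721). *Lgr4* (0.20 ± 0.07) was not called without NF1-MET vehicle replicate 1 (0.19), NF1-MET vehicle replicate 2 (0.22) or NF1-MET;sgP53 vehicle replicate 2 (0.12), or with no filter on low counts (0.21, edgeR adjusted p = 0.0551). With DESeq2's Wald test *Fzd6*, *Wnt5b*, *Fzd2* and *Lgr4* were not called (adjusted p = 0.109, 0.124, 0.0647 and 0.248).

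With capmatinib in both lines, *Wnt4*, *Axin2*, *Lef1*, *Wnt10a*, *Nkd2*, *Dkk2*, *Tcf7*, *Lrp5* and *Fzd7* were lower in NF1-MET;sgP53, and *Dkk3*, *Sfrp1* and *Tcf7l2* were higher. That is 12 of 34 tested members (35.3%), against 12.3% of all tested genes (5.94% up, 6.34% down), with medians of -0.064 and -0.0010. With library totals, which put the median of all genes at 0.11, the members split into 3 higher and 3 lower and all tested genes into 537 higher and 129 lower, and the calls of *Dkk2*, *Tcf7*, *Fzd7*, *Axin2*, *Nkd2* and *Lrp5* were lost. The calls shared with the vehicle comparison were *Dkk3*, higher, and *Dkk2*, *Fzd7* and *Tcf7*, lower, which is 33.3% of each list, beside 28.3% and 53.4% for all tested genes.

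*Wnt4* was 4.47-fold lower in NF1-MET;sgP53 capmatinib than in NF1-MET capmatinib (log2 -2.16 ± 0.30, edgeR adjusted p = 7.4e-05). *Lef1* (-0.53 ± 0.10, edgeR adjusted p = 0.0017), *Wnt10a* (-0.50 ± 0.05, adjusted p = 7.0e-07) and *Nkd2* (-0.48 ± 0.10, adjusted p = 0.0032) were lower too. In each case both libraries of the edited line lay below both of NF1-MET, and 25 of the 34 members (73.5%) did not overlap between the lines, beside 52.3% of all tested genes. *Sfrp1* was higher by 0.41 ± 0.07 (edgeR adjusted p = 6.4e-04). The call of *Axin2* (-0.70 ± 0.20, edgeR adjusted p = 0.025) was lost without NF1-MET capmatinib replicate 1 (-0.57, adjusted p = 0.144), without NF1-MET;sgP53 capmatinib replicate 2 (-0.55, adjusted p = 0.121), with DESeq2's Wald test (-0.71, adjusted p = 0.168) and with no filter on low counts (-0.71, adjusted p = 0.0766). The call of *Lrp5* (-0.24 ± 0.06) was lost with no filter on low counts (-0.25, adjusted p = 0.0835) and without NF1-MET capmatinib replicate 2 (-0.14, adjusted p = 0.301). With DESeq2's Wald test *Lrp5*, *Nkd2* and *Tcf7l2* were not called (adjusted p = 0.136, 0.0545 and 0.0624), and *Tcf7l2* was not called with no filter on low counts either (0.20, adjusted p = 0.0510).

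**Figure D5:**
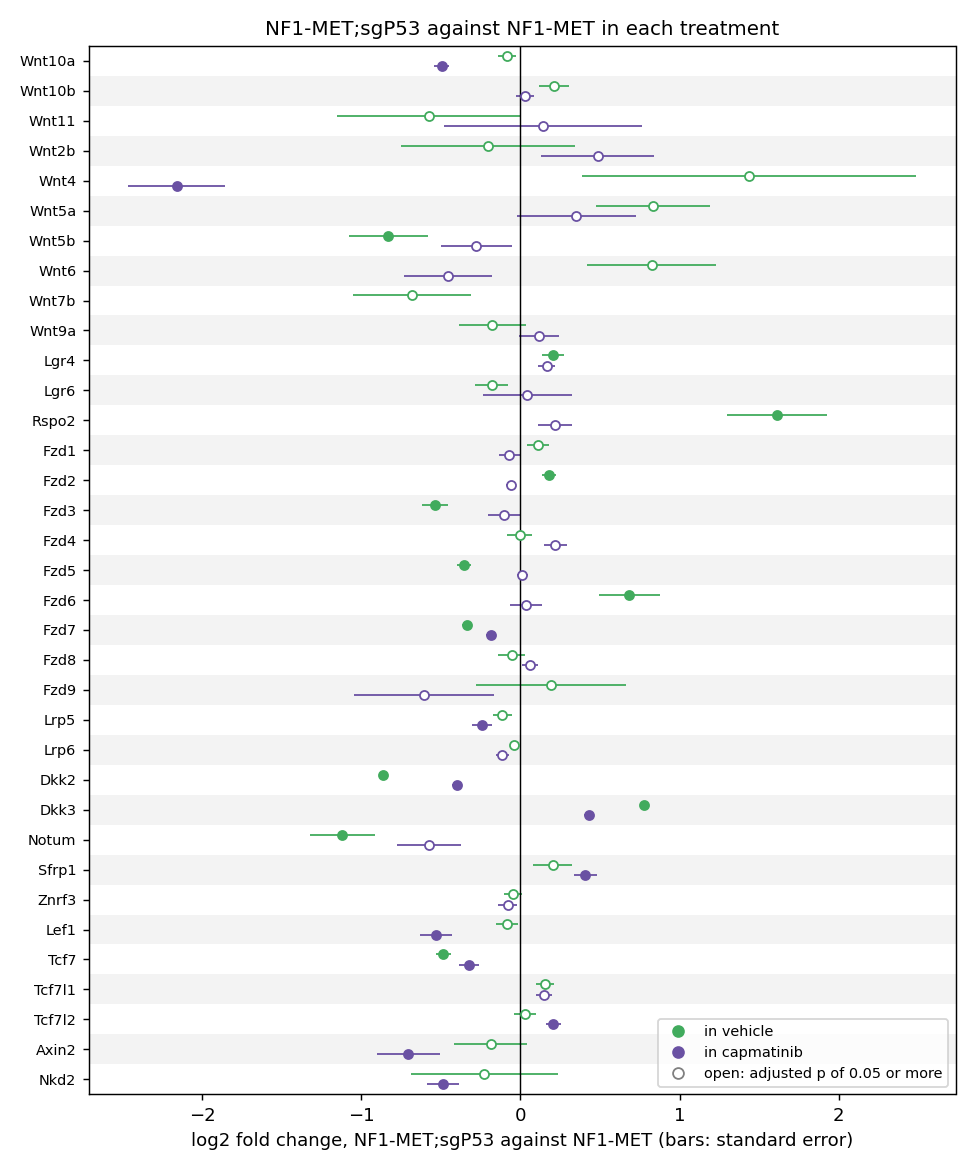
Log2 difference of NF1-MET;sgP53 against NF1-MET for the tested Wnt genes, in vehicle (green) and in capmatinib (purple), with bars for the standard error and open points where the adjusted p was 0.05 or more. *Rspo2* was at 1.61 in vehicle and 0.22 in capmatinib, and *Wnt7b* could not be tested in capmatinib. The vehicle point of *Wnt4* rests on 6 against 2 counts and gives no direction.

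The size of the capmatinib response differed between the lines for 10 of the 35 tested members (28.6%), by the interaction of line and drug over all 8 libraries, where 9.71% of all tested genes passed. *Wnt4* is among the 10 although it met the minimum only through its capmatinib libraries, and 9 of 33 (27.3%) are left without it and *Wnt7b*. For *Dkk2*, *Fzd3* and *Fzd5* the interaction was above 0 (3.85% of all tested genes), and for *Wnt4*, *Rspo2*, *Fzd6*, *Lef1*, *Wnt10a*, *Dkk3* and *Fzd2* it was below 0 (5.86%). With library totals the split was 2 above and 1 below, and all tested genes split into 192 above and 123 below 0 in place of 558 and 849. *Rspo2*, *Fzd6*, *Fzd2* and *Dkk3* rose in both lines and by less in the edited one, and *Dkk2* and *Fzd3* fell in both and by less in the edited one. *Lef1* fell by more and *Fzd5* rose by more in the edited line, and *Wnt10a* had opposite directions. The calls of *Fzd6*, *Fzd3* and *Lef1* were lost with library totals and with DESeq2's Wald test, and those of *Dkk3*, *Fzd2* and *Wnt10a* with library totals. That of *Rspo2* depended on single NF1-MET vehicle libraries, as given below. *Nkd2* (-0.28 ± 0.43, edgeR adjusted p = 0.77), *Axin2* (-0.54 ± 0.31, adjusted p = 0.33), *Lgr6* (0.20 ± 0.27, adjusted p = 0.74) and *Tcf7* (0.14 ± 0.08, adjusted p = 0.33) were not called.

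Beyond the members, 94 other Wnt pathway genes were listed and 79 of them tested. With capmatinib 35 rose and 26 fell in NF1-MET, or 77.2%, and 37 rose and 25 fell in NF1-MET;sgP53, or 78.5%, beside 70.2% and 67.6% of all tested genes. Both genes of ligand secretion rose in both lines. *Wls*, which carries Wnt proteins to the cell surface, went from 173 and 174 CPM to 370.4 and 359.8 CPM in NF1-MET (1.06 ± 0.02, edgeR adjusted p = 5.8e-27) and from 206 and 203 CPM to 401 and 389 CPM in NF1-MET;sgP53 (0.95 ± 0.03, adjusted p = 2.0e-17). Among the 22 tested transducers 8 rose and 9 fell in NF1-MET, while 8 rose and 7 fell in NF1-MET;sgP53, and among the 4 alternative receptors (*Ror1*, *Ror2*, *Ryk* and *Ptk7*) 4 rose in NF1-MET and 3, all but *Ror2*, in NF1-MET;sgP53.

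The 16 tested genes listed elsewhere as Wnt targets went both ways, with 6 higher and 8 lower in NF1-MET and 6 higher and 9 lower in NF1-MET;sgP53. These are 87.5% and 93.8%, beside 70.2% and 67.6% of all tested genes. *Ccn5*, a matricellular protein, went from 0.964 and 0.727 CPM to 70.3 and 66.9 CPM in NF1-MET (6.33 ± 0.09) and from 2.85 and 2.29 CPM to 95.5 and 99.1 CPM in NF1-MET;sgP53 (5.25 ± 0.06), and its relative *Ccn4* rose by 1.65 ± 0.03 and 1.27 ± 0.03. The receptors *Ephb2* (1.53 ± 0.06 and 1.10 ± 0.05) and *Ephb3* (1.98 ± 0.06 and 1.94 ± 0.06) and the inhibitor of differentiation *Id2* (1.29 ± 0.06 and 0.89 ± 0.07) also rose. *Ccnd1*, the cyclin of the early cell cycle, went from 1435 and 1429 CPM to 541 and 535 CPM in NF1-MET (-1.43 ± 0.02) and from 1247 and 1235 CPM to 454 and 458 CPM in NF1-MET;sgP53 (-1.44 ± 0.02). The transcription factors *Fosl1* (-1.81 ± 0.03 and -1.71 ± 0.04) and *Sox2* (-2.55 ± 0.04 and -2.03 ± 0.05) and the gap junction gene *Gja1* (-1.26 ± 0.02 and -1.24 ± 0.03) fell in both lines. These genes respond to many other signals besides Wnt.

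Of the modulators, *Cthrc1*, a secreted cofactor of Wnt and Frizzled, rose from 2.53 and 2.23 CPM to 21.3 and 21.9 CPM in NF1-MET (3.17 ± 0.10) and from 3.20 and 2.88 CPM to 21.1 and 21.9 CPM in NF1-MET;sgP53 (2.83 ± 0.09). *Igfbp4*, another secreted modulator, rose by 1.21 ± 0.02 and 1.31 ± 0.03, and the transducer *Dact3*, which binds Dishevelled, by 1.33 ± 0.06 and 1.28 ± 0.06. The Groucho corepressors, which bind Tcf proteins, split, with *Tle1* lower (-1.16 ± 0.04 and -1.05 ± 0.04) and *Tle2* higher (1.42 ± 0.10 and 1.53 ± 0.11). Between the lines, 25 of the 79 were called in vehicle (31.6%), 9 of them higher in NF1-MET;sgP53, and 17 in capmatinib (21.5%), 8 of them higher, beside 23.2% and 12.3% of all tested genes. The interaction passed for 10 (12.7%, beside 9.71% of all tested genes), 2 above and 8 below 0, among them *Ccn5* (-1.09 ± 0.18, edgeR adjusted p = 2.2e-04), *Ephb2* (-0.45 ± 0.07, adjusted p = 1.3e-04) and *Sox2* (0.51 ± 0.07, adjusted p = 7.5e-06).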

How the data were processed

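Poly(A) RNA from 8 wells, 4 for each line, was sequenced by the authors. Per the labels and the study's methods, reads were demultiplexed with bcl2fastq 1.9.0, trimmed with Trim Galore 0.4.2, checked with FastQC 0.11.7 and mapped to mm10 with STAR 2.5.2b, which also gave the deposited raw counts per gene. The annotation release and the strand setting are not given in the sources used here. Counts were fitted in R 4.3.3 with edgeR 4.0.16 (TMM factors, quasi-likelihood F-test, Benjamini-Hochberg adjustment over all genes tested, threshold 0.05) for genes that reached a count of 10 in 2 or more libraries. CPM used TMM factors over all 8 libraries, except for the limits of a 0 count, which used raw library totals. Levels between genes were compared per kilobase of exon (GENCODE M21).

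The members and the pathway and marker lists were chosen with earlier results of these data known. Every member could be named. Full statistics were given to members called with an absolute log2 fold change of at least 1 and a mean of at least 1 CPM in a group, and to *Axin2*, *Lef1*, *Tcf7*, *Nkd1*, *Notum*, *Znrf3* and *Rnf43*. Other pathway genes were named with values when called with such a change and at least 10 CPM. Alternatives were DESeq2 1.42.0 (size factors, Wald test), library totals, other count filters, a replicate block, 1 model over all libraries and leaving out each library. Same-numbered wells are not stated to be paired. The procedure was tested on simulated counts. Single values of some marker genes are not reported here.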

Additional observations from a re-analysis of the deposited data

Results flagged for a closer look

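The capmatinib response differed between the lines, by the interaction of line and drug over all 8 libraries (quasi-likelihood F-test of edgeR, Benjamini-Hochberg adjusted), for 10 of the 35 tested members (28.6%), beside 9.71% of all tested genes. The 10 include *Wnt4*, and 9 of 33 (27.3%) are left without it and *Wnt7b*. A positive value means a higher log2 fold change in NF1-MET;sgP53. The values were 0.45 for *Dkk2* (adjusted p = 8.7e-08), -0.37 for *Dkk3* (adjusted p = 4.1e-07), 0.35 for *Fzd5* (adjusted p = 1.3e-04), -0.43 for *Wnt10a* (adjusted p = 3.7e-04) and -0.26 for *Fzd2* (adjusted p = 6.9e-04). With library totals *Dkk3*, *Wnt10a* and *Fzd2* were not called, at -0.29, -0.35 and -0.18.

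*Rspo2* had an interaction of -1.41 (edgeR adjusted p = 0.0027), which was not called without NF1-MET vehicle replicate 1 (-0.99, adjusted p = 0.0574) and was -2.07 without NF1-MET vehicle replicate 2. *Lef1* had -0.46 (adjusted p = 0.012), not called without NF1-MET capmatinib replicate 1 (-0.39) or NF1-MET;sgP53 capmatinib replicate 1 (-0.37). *Fzd6* had -0.67 (adjusted p = 0.039), not called without either NF1-MET vehicle library (-0.55 without replicate 1 and -0.81 without replicate 2), without either NF1-MET capmatinib library (-0.69 without replicate 1 and -0.64 without replicate 2) or without the second vehicle or capmatinib library of NF1-MET;sgP53 (-0.51 and -0.55). *Fzd3* had 0.41 (adjusted p = 0.041), not called without NF1-MET vehicle replicate 1 (0.34), NF1-MET capmatinib replicate 1 (0.35), NF1-MET;sgP53 vehicle replicate 2 (0.37) or NF1-MET;sgP53 capmatinib replicate 1 (0.37). *Wnt4* had a fitted value of -3.61, which depends on the small count added in the fit. It met the minimum only through its capmatinib libraries, with 1 and 1 counts in NF1-MET vehicle and 2 and 4 in NF1-MET;sgP53 vehicle, so no test is given. With library totals *Lef1*, *Fzd6* and *Fzd3* were not called (-0.39, -0.59 and 0.49), and with DESeq2's Wald test neither were *Lef1*, *Fzd6* and *Fzd3* (-0.45, -0.65 and 0.43). The causes of these differences were not tested.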

How the results depend on the processing

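For 97 results, the called members with *Axin2* and *Notum* in each comparison, 1092 values were recomputed under the alternatives: 1013 kept their direction and side of the threshold, 76 were no longer called, and 3 reversed. Other members were called under an alternative only 21 times (12 genes), among them *Fzd7* for the interaction and *Tcf7l1* and *Wnt10b* between the lines in vehicle. The 3 that reversed were *Fzd7* (-0.016), *Wnt10a* (-0.00098) and *Lrp5* (-0.038) with capmatinib in NF1-MET, scaled to library totals, which put the median of all genes at -0.18, -0.12, 0.060, 0.11 and 0.052 in the order NF1-MET, NF1-MET;sgP53, lines in vehicle, lines in capmatinib and interaction. The share of counts taken by *Gm42418* ran from 1.11% to 13.1% over the libraries, and its part in that shift was not tested. With library totals, members lower in NF1-MET;sgP53 under capmatinib fell from 9 to 3 and interactions below 0 from 7 to 1. With DESeq2's Wald test, members higher in NF1-MET;sgP53 in vehicle fell from 5 to 2 and interactions below 0 from 7 to 4, which leaves out *Wnt4*, given no adjusted p. Leaving out 1 library gave 2 to 6 members higher in vehicle, lowest without NF1-MET;sgP53 vehicle replicate 2, and 4 to 7 interactions below 0, lowest without NF1-MET vehicle replicate 1 or NF1-MET capmatinib replicate 1. The cause was not tested.

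Over all genes, the lines in vehicle differed for 833 higher and 1100 lower with the Wald test in place of 1580 and 1775, and those in capmatinib for 436 and 434 with that test and 515 and 555 with no count filter in place of 860 and 918. Interactions came to 433 above and 461 below 0 with the Wald test. Leaving out NF1-MET;sgP53 capmatinib replicate 2 gave 713 above and 509 below 0. With the replicate block, members called were 22 higher and 7 lower, 19 and 8, 7 and 7, 3 and 10, and 3 and 7 in the same order of comparisons; same-numbered libraries deviated together with correlations between -0.078 and 0.22 in the 4 comparisons between pairs of groups. The stricter filter left *Wnt4*, *Wnt2b* and *Wnt7b* untested. Depth limited genes with few counts, such as *Wnt4*, whose NF1-MET vehicle libraries had 1 count each.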
